A study of Mus musculus and Rattus norvegicus with 14 samples.

Results

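Aminoacyl-tRNA synthetases load each transfer RNA with its amino acid and so feed every round of protein synthesis. Their messenger RNAs were followed in 12 mouse heart libraries. Members were the protein-coding genes of the mouse table whose symbol has the form of a synthetase name (a letter followed by ars, with or without a final 1 or 2), together with Eprs, Farsa and Farsb. The rule found 37 of the 54532 genes in the table. Of these, 17 carry the suffix 2 and are called mitochondrial here, and 20 do not and are called cytosolic. The deposited table uses older symbols (Aars for Aars1, and so on), which are kept.

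The libraries came from heart tissue of mice, with 3 in each of 4 groups named by the treatment label: Sham, Model and the compounds LQ-40 and SQ-3. The study set out to learn how LQ-40 and SQ-3, compounds known here only by code name, act on fibrosis of heart muscle, with their likeness in structure in view. The labels give no strain, age, dose, time or procedure for the Model group. Whether hearts given SQ-3 or LQ-40 had gone through the model procedure is not stated, nor whether the libraries of a group are separate animals, so p-values measure only the spread between these libraries.

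A cell needs 2 sets of these enzymes, both encoded in the nucleus. The cytosolic set serves the ribosomes that translate nuclear genes, and several of its members sit together in the multi-synthetase complex, held by the scaffold proteins Aimp1, Aimp2 and Eef1e1. The mitochondrial set is imported and serves the translation of the respiratory chain subunits encoded in mitochondrial DNA, on which the heart depends for its energy supply. Gars and Kars supply both compartments from a single gene, and mitochondria have no glutaminyl enzyme of their own. Many cytosolic synthetase genes are targets of Atf4, the transcription factor of the integrated stress response, and Wars is known to be induced by interferon.

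Values are FPKM (reads per kilobase of gene, relative to library size) divided by a library factor, here called scaled FPKM; differences are log2 changes of scaled FPKM + 1. All 37 members passed the filter of 1 FPKM in at least 3 libraries. A gene was called when its limma p, adjusted by Benjamini-Hochberg over the 13000 genes tested, was under 0.05. The libraries held 13085370 to 16698987 reads. On the first principal component, with 53.4% of the variance, the range was -52.5 to -43.8 in Sham and 26.3 to 36.2 in Model. Libraries of LQ-40 did not sit together: they lay at -20.6, 16 and 34.4, and results for that group are given with and without single libraries. Heart muscle was the labelled tissue, and all 6 cardiomyocyte markers were present. Their summed level ran from 15654 to 17212 scaled FPKM in Sham and from 7920 to 9474 in Model. Of the 5 skeletal muscle markers, Actn3 and Myh4 stayed under 1 scaled FPKM in every library, while the others did not. The summed level of these markers ran from 1119 to 1457 in Sham and from 1217 to 1802 in Model. In LQ-40 it was 907 to 1787 and in SQ-3 1564 to 2341. Only 2 of the 5 skeletal muscle markers passed the filter. Their log2 changes in Model against Sham went opposite ways, -0.87 and 0.48. The sum of 4 atrial cardiomyocyte markers ran from 202 to 344 in Sham and from 1175 to 2919 in Model. That sum was 267 to 1680 in LQ-40 and 377 to 3229 in SQ-3. It does not stand for all 4 atrial markers. Sln stayed under 1 scaled FPKM in every library, and only 2 of the 4 passed the filter. Their log2 changes in Model against Sham were 0.07 and 2.7.

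In Sham hearts the cytosolic enzymes were the more abundant set, with a median level of 13.3 scaled FPKM against 4.22 for the mitochondrial enzymes. Nars, which loads asparagine, had the highest mean cytosolic level in all 4 groups, and Cars, which loads cysteine, the lowest. In Sham, Nars (36.4 ± 4.74 scaled FPKM, SD, n = 3) and Wars (36.3 ± 14.3) were level, with overlapping libraries. Nars read 31.3, 40.7 and 37.2 scaled FPKM in Sham and 36.5, 35.3 and 39.9 in Model. Cars read 2.47, 3.07 and 3.41 in Sham and 3.85, 3.17 and 3.78 in Model. The Sham and Model libraries overlapped for both genes. In the mitochondrial set Lars2, for leucine, had the highest level in Sham (17.4 ± 8.85, SD, n = 3), followed by Iars2, for isoleucine (15.1 ± 0.98, n = 3); their libraries overlapped. Wars2, for tryptophan, and Mars2, for methionine, were the lowest in Sham, at 1.44 ± 0.103 and 1.65 ± 0.148 (SD, n = 3). FPKM divides by the deposited gene length, which for Eprs is 18102 bases, the longest of the 37, so its level is the most reduced by that division.

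Mitochondrial synthetases were lower in Model than in Sham hearts almost throughout the set. By limma, 11 of 17 fell and 0 rose, where 18.0% of all tested genes fell and 20.9% rose. Of the 37 synthetases of both sets, none was called higher, and Yars alone was higher at an unadjusted p under 0.05, which 49.0% of all genes passed in either direction; limma-voom on the recovered reads also called 0 higher (19.5% of all genes). In 15 of 17 mitochondrial genes every Model library lay below every Sham library, against 25.7% of all tested genes. The median log2 change of the 17 was -0.43, and that of all tested genes was 0.03. Leaving out a single library left 7 to 9 called, with 7 when Model 3 was left out. Cardiomyocyte markers moved the same way (5 of 6 called lower, median log2 change -1.12), while 7 of 7 fibroblast and 6 of 7 macrophage markers were called higher; the share of reads from the mitochondrial genome was 14.6 to 23.6% in Sham and 10.8 to 15.3% in Model. Their part in the fall was not tested. In pieces of whole heart, fewer cells of a type and less RNA per cell cannot be told apart.

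**Figure D1:**
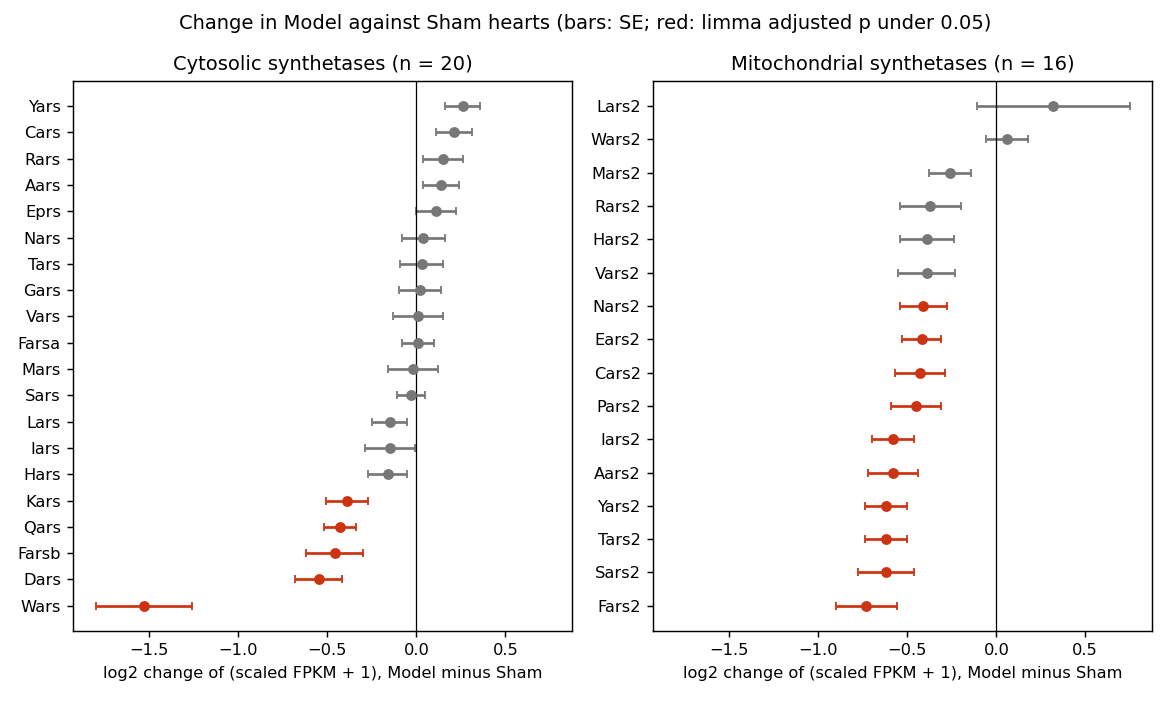
Log2 change of scaled FPKM + 1, Model minus Sham, for 20 cytosolic (left) and 16 of the 17 mitochondrial (right) synthetases; points are limma estimates, bars are standard errors, and red points were called. On the right 14 of 16 points lie below 0, and on the left 10 of 20 do, beside 47.8% of all tested genes.

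The mitochondrial gene with the smallest p was Yars2, the tyrosine enzyme (chr16:16302965-16309640, mm10). It read 9.03, 9.68 and 7.8 scaled FPKM in Sham and 4.95, 5.76 and 5.45 in Model. All 3 Model libraries were below the lowest Sham library, and the log2 change was -0.62 ± 0.12 (SE; limma adjusted p = 0.0037). Tars2, for threonine (chr3:95739976-95760206), read 6.12, 6.7 and 6.58 in Sham and 4.08, 3.87 and 3.6 in Model. Its log2 change was the same size, -0.62 ± 0.12 (SE; limma adjusted p = 0.00371), with the groups apart. Iars2 (chr1:185284726-185329396) read 14.6, 16.2 and 14.4 in Sham against 10.1, 9.67 and 9.58 in Model. Among the mitochondrial genes that fell it had the highest level, and its log2 change was -0.58 ± 0.12 (SE; limma adjusted p = 0.00525). It shares 2034 bases with Rab3gap2 on the opposite strand, and the strand setting of the counting is not given in the sources used here.

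Aars2, for alanine, read 6.46, 6.26 and 6.23 scaled FPKM in Sham and 4.05, 3.54 and 4.1 in Model. The SD of its Sham libraries was 0.129, and the log2 change was -0.58 ± 0.14 (SE; limma adjusted p = 0.00814). Fars2, the single-chain phenylalanine enzyme of mitochondria, had the steepest fall of the set, with a log2 change of -0.73 ± 0.17 (SE; limma adjusted p = 0.0087). It read 9.59, 8.95 and 8.91 in Sham and 4.86, 4.86 and 5.64 in Model, with no overlap. Sars2, for serine, read 3.75, 4.3 and 3.73 in Sham and 2.34, 2.39 and 1.92 in Model, a log2 change of -0.62 ± 0.16 (SE; limma adjusted p = 0.014). Without Model 3 the Sars2 change was -0.55 and missed the threshold (limma adjusted p = 0.0521).

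Ears2 loads glutamate, also onto the glutamine tRNA, where it is then converted by the GatCAB complex. It read 2.25, 2.34 and 2.55 scaled FPKM in Sham and 1.59, 1.58 and 1.43 in Model, a log2 change of -0.42 ± 0.11 (SE; limma adjusted p = 0.0145; 0.0505 without Model 3). Nars2 (log2 change -0.41), Cars2 (-0.43) and Pars2 (-0.45) were also called, with limma adjusted p between 0.0267 and 0.0321. Nars2 read 1.82, 2.4 and 2.06 in Sham and 1.26, 1.35 and 1.33 in Model, and Cars2 read 3.73, 3.56 and 3.98 against 2.56, 2.45 and 2.56. These 3 genes lost the call in 6 to 7 of 13 other settings, with adjusted p up to 0.125. Pars2, for proline, had as few as 53 reads in a library, the fewest of any member, and Cars2 shares 984 bases with Naxd on the opposite strand. Ears2 shares 89 bases with Ubfd1, also on the opposite strand.

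Hars2, Vars2, Rars2 and Mars2 missed the threshold, although every Model library was below every Sham library. Their log2 changes were -0.39, -0.39, -0.37 and -0.26, with limma adjusted p from 0.0627 to 0.108. Hars2 shares 198 bases with Hars on the opposite strand, and the mean of Hars was higher (18.99 against 5.577 FPKM). With the strand setting not given, the levels of this pair and their ratio are uncertain. Wars2 and Lars2 were the only mitochondrial members whose estimate lay above 0. Wars2 read 1.39, 1.55 and 1.36 scaled FPKM in Sham and 1.28, 1.77 and 1.58 in Model, a log2 change of 0.06 ± 0.12 (SE; limma adjusted p = 0.741) that was -0.06 with quantile normalization and -0.01 without Model 2. By catalytic fold, 7 of 8 class II and 4 of 9 class I mitochondrial enzymes were called lower, beside 18.0% of all tested genes. The medians were -0.53 and -0.39, and the difference between the classes was not tested.

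**Figure D2:**
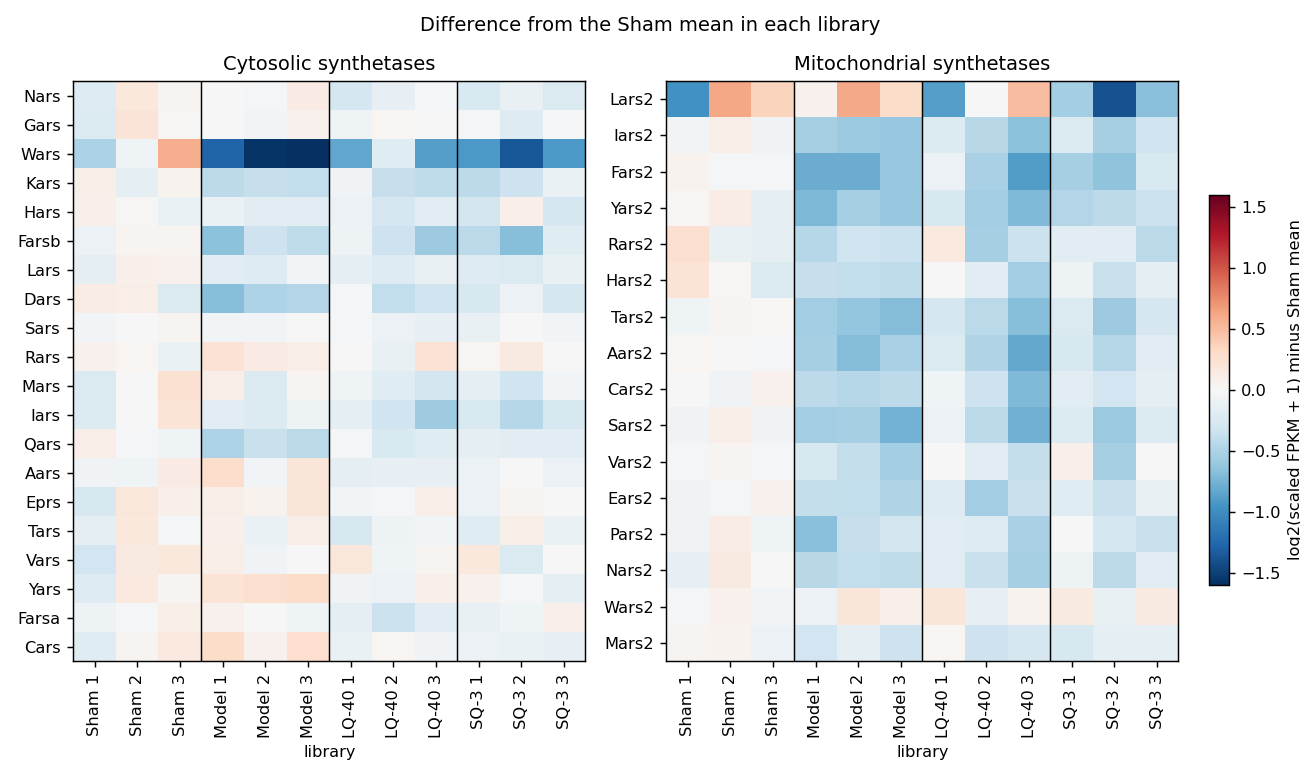
Difference of log2(scaled FPKM + 1) from the Sham mean for 36 of the 37 synthetases (rows, highest mean level at the top of each panel) in each of the 12 libraries (columns). Blue is below and red above the Sham mean; the Model columns are blue for most mitochondrial genes, LQ-40 1 is paler than LQ-40 3, and the Lars2 row changes colour within groups.

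Lars2 behaved unlike the rest of its class. In Sham it read 7.45, 24.4 and 20.3 scaled FPKM, and in Model 16.4, 24.2 and 19.4. LQ-40 libraries read 8.04, 15.5 and 22.3, and SQ-3 libraries 10.4, 5.29 and 9.46. The spread within Sham covered the range of all Model libraries. The log2 change in Model was 0.32 ± 0.43 (SE; limma adjusted p = 0.584), and -0.17 without Sham 1. A ribosomal RNA gene, CT010467.1 (chr17:39846353-39848827), chosen after its values were seen, ran from 77.8 to 329 scaled FPKM over the 12 libraries. The 4 libraries with the least of it were SQ-3 2, Sham 1, LQ-40 1 and SQ-3 3, which were also the 4 lowest for Lars2, in the same order. Sham 2 was highest for both. Per the labels' protocols RNA was captured by its poly-A tail; the part of residual ribosomal RNA in the Lars2 values was not tested.

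Cytosolic synthetases showed no common direction in Model hearts. By limma 5 of 20 fell and 0 rose, beside 18.0% of all tested genes that fell and 20.9% that rose, so the count of falls is near that of all genes. The median log2 change was -0.01, and 13 of 20 genes had overlapping libraries. Leaving out Model 1, Model 3, Sham 1 or Sham 3 left 3 called lower, and without Sham 2 there was 1 called higher. The 5 that fell were Wars, Qars, Dars, Kars and Farsb. Among enzymes of the multi-synthetase complex 3 of 8 fell (Qars, Dars and Kars; 18.0% of all genes fell), and the complex members' median log2 change was -0.15.

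Wars, the cytosolic tryptophan enzyme (chr12:108860030-108894174), changed most of the 37. It read 23.9, 32.8 and 52.0 scaled FPKM in Sham and 13.6, 11.0 and 9.67 in Model. The Sham libraries were widely spread, but the lowest of them was above every Model library. The log2 change was -1.53 ± 0.27 (SE; limma adjusted p = 0.00266). All 20 genes of an interferon-response list without Wars were called lower in Model as well, beside 18.0% of all tested genes. The median log2 change of the 20 was -2.82. Rsad2, an antiviral protein induced by interferon, had the smallest p of them and read 20.2, 29.4 and 28.7 in Sham and 2.6, 1.84 and 0.949 in Model. The part of this response in the Wars difference was not tested.

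**Figure D3:**
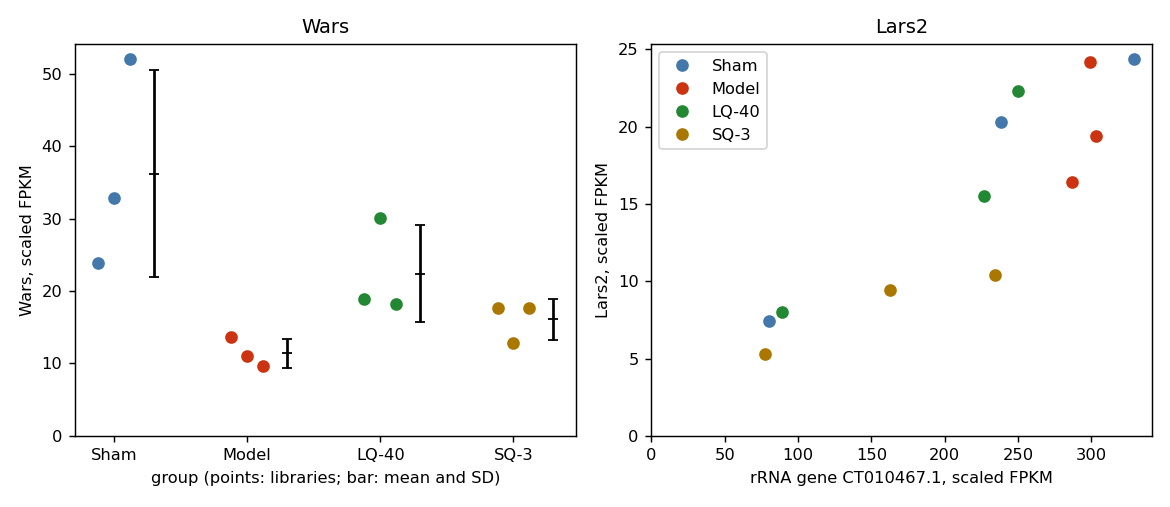
Left, Wars in each library by group in scaled FPKM, with the mean and SD of 3 libraries; the 3 Model libraries (9.67 to 13.6) lie below the 3 Sham libraries (23.9 to 52.0). Right, Lars2 against the ribosomal RNA gene CT010467.1, both in scaled FPKM, 1 point per library; the lowest and the highest library are the same for both genes.

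Qars, the glutamine enzyme, read 11.4, 10.3 and 9.99 scaled FPKM in Sham and 7.19, 8.02 and 7.59 in Model. The groups did not overlap, and the log2 change was -0.43 ± 0.09 (SE; limma adjusted p = 0.00478). Dars, for aspartate, read 22.3, 22.2 and 17.4 in Sham and 12.4, 14.3 and 14.6 in Model, a log2 change of -0.55 ± 0.13 (SE; limma adjusted p = 0.00976). Kars, which serves both compartments, read 24.4, 20.5 and 23.8 in Sham and 16.9, 17.4 and 17.2 in Model. Its log2 change was -0.39 ± 0.12 (SE; limma adjusted p = 0.0282), and 5 of 14 other settings lost the call (adjusted p 0.0606 to 0.0905). Farsb is the beta chain of the cytosolic phenylalanine enzyme and works only with the alpha chain Farsa; the mitochondrial phenylalanine enzyme Fars2 was called lower too. Farsb read 21.6, 23.9 and 23.9 in Sham and 14.3, 18.2 and 17.2 in Model (log2 change -0.46 ± 0.16, SE; limma adjusted p = 0.0385), a call lost in 8 of 14 other settings. Farsa read 4.72, 4.98 and 5.44 in Sham and 5.36, 5.08 and 4.77 in Model, with overlap and a log2 change of 0.01 ± 0.09 (SE).

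Gars, the other enzyme of both compartments, read 23.1, 31.5 and 27.5 scaled FPKM in Sham and 27.3, 26.4 and 28.6 in Model (log2 change 0.02 ± 0.12, SE; limma adjusted p = 0.929). In all, 2 cytosolic genes had every Model library above every Sham library, beside 29.8% of all genes. Yars, for tyrosine, had the highest cytosolic estimate. It read 4.7, 6.36 and 5.8 in Sham and 6.66, 6.88 and 7.04 in Model, but the log2 change of 0.26 ± 0.1 (SE) did not pass (limma adjusted p = 0.0738). Rars, for arginine, was the other (0.15 ± 0.11, log2, SE; limma adjusted p = 0.279). The other 11 cytosolic members had log2 changes between -0.16 (Hars) and 0.21 (Cars).

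Setting each cytosolic enzyme beside the mitochondrial enzyme for the same amino acid gave 17 reported pairs over 16 amino acids. The ratio of their scaled FPKM was higher in Model in 15 pairs, and in 14 every Model library was above every Sham library. The median change of the log2 ratio was 0.70. In Sham the cytosolic partner had the higher level in 13 of 17 pairs. The Yars to Yars2 ratio was 0.52, 0.657 and 0.744 in Sham and 1.35, 1.2 and 1.29 in Model, so that the more abundant partner switched. The Cars to Cars2 ratio moved across 1 too, from 0.663, 0.861 and 0.856 to 1.51, 1.3 and 1.48. For alanine the ratio was 1.21, 1.24 and 1.45 in Sham and 2.51, 2.24 and 2.31 in Model. The tryptophan pair alone went the other way without overlap, from 17.2, 21.1 and 38.2 in Sham to 10.7, 6.2 and 6.11 in Model. The Lars and Mars pairs overlapped. No p was computed for these ratios, nor a share over other gene pairs. The pairs are not independent, as Eprs and Fars2 each stand in more than 1.

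**Figure D4:**
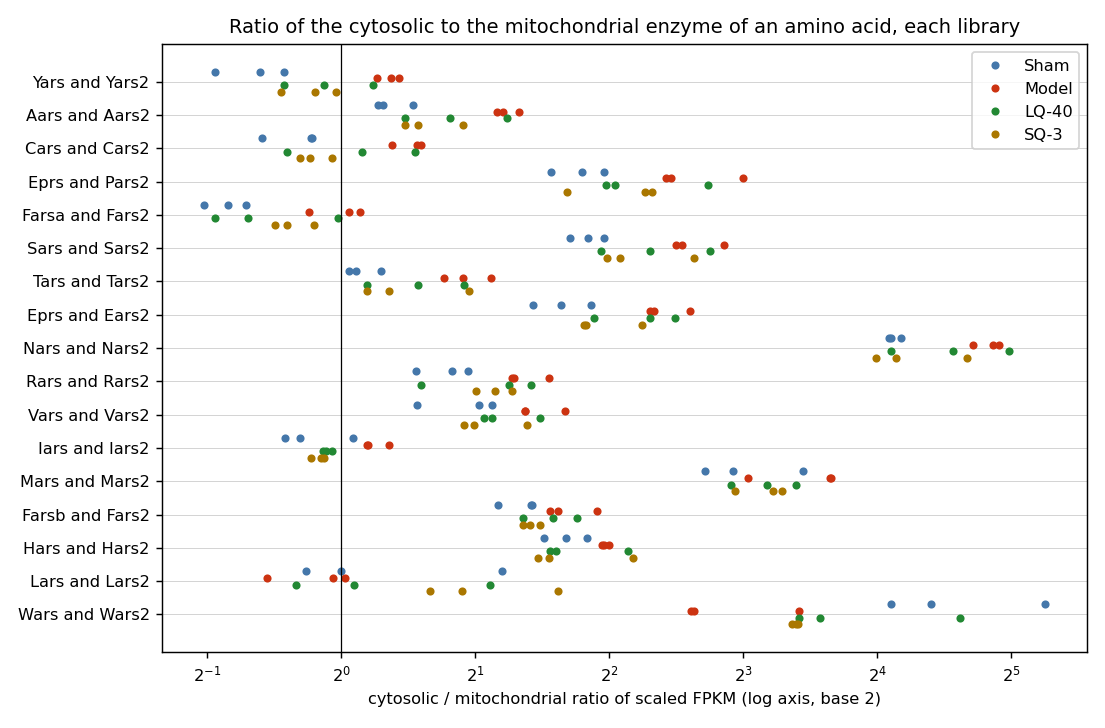
Ratio of the cytosolic to the mitochondrial enzyme of an amino acid in scaled FPKM (log axis, base 2), 1 point per library, for 17 pairs ordered by the Model minus Sham change. Model points lie to the right of Sham points in 14 pairs; the tryptophan pair at the bottom is the reverse, and SQ-3 libraries lie below every Model library in 9 pairs.

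Other genes of mitochondrial translation were also lower in Model. Of 14 mitochondrial translation factors, 12 fell and 0 rose (median log2 change -0.72). Of all tested genes 18.0% fell and 20.9% rose. The elongation factor Gfm1 had 57.6, 59.0 and 51.5 scaled FPKM in Sham and 27.9, 27.4 and 27.0 in Model. Among the 4 with the smallest p were Gfm2, which recycles ribosomes (log2 change -0.80 ± 0.14, SE; limma adjusted p = 0.00276), and Gatb, a subunit of the complex that completes glutaminyl-tRNA (-0.91 ± 0.18, SE; limma adjusted p = 0.00447). Of 14 genes of mitochondrial tRNA maturation 8 fell and 0 rose (median -0.44), led by Osgepl1, a tRNA-modifying enzyme (-1.07 ± 0.2, SE; limma adjusted p = 0.00307). Of the 3 scaffold and partner genes of the complex, Aimp1 fell (-0.58 ± 0.11, SE; limma adjusted p = 0.00405). Tarsl2, a second cytosolic threonine enzyme outside the name rule, read 9.23, 8.0 and 7.56 in Sham and 3.69, 4.15 and 3.24 in Model. Of 8 genes listed for cytosolic elongation, among them Eef1akmt1, a methyltransferase of the elongation factor and not a factor itself, 1 rose and 3 fell (Eef1akmt1, Eef1d and Eef1a2): Eef1a1 rose (0.89 ± 0.22, SE; limma adjusted p = 0.00962), and Eef1a2, the form of adult muscle, fell (-1.06 ± 0.33, SE; limma adjusted p = 0.0285).

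Many Atf4 target genes outside the synthetase family rose in Model, and none of the synthetases listed as Atf4 targets was called higher. Of all tested genes 20.9% rose and 18.0% fell. Of 28 tested non-synthetase targets 16 rose and 2 fell, with a median log2 change of 0.57. The list held 32 genes. Ddit3, one of them, was left out of these counts, although a protein-coding entry of that name had a mean of 9.194 FPKM. Of the 12 synthetases listed as Atf4-responsive, 0 rose and 1 (Wars) fell, with a median of 0.02. The test of this contrast itself was not run. Gdf15, a stress-induced secreted factor, was under 0.3 scaled FPKM in the Sham libraries and read 28.5, 11.8 and 23.0 in Model (log2 change 4.11 ± 0.47, SE; limma adjusted p = 0.000357). The neutral amino acid transporter Slc38a2 rose from 23.2 ± 2.12 to 39.6 ± 3.69 scaled FPKM (SD, n = 3; limma adjusted p = 0.00118). The proline-synthesis enzyme Aldh18a1 rose from 3.25 ± 0.222 to 7.9 ± 0.257 (SD, n = 3; limma adjusted p = 0.00138). Atf4 itself read 27.6, 22.6 and 28.4 in Sham and 35.2, 35.7 and 35.6 in Model; the groups were apart, but the log2 change of 0.43 ± 0.2 (SE) did not pass (limma adjusted p = 0.107).

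**Figure D5:**
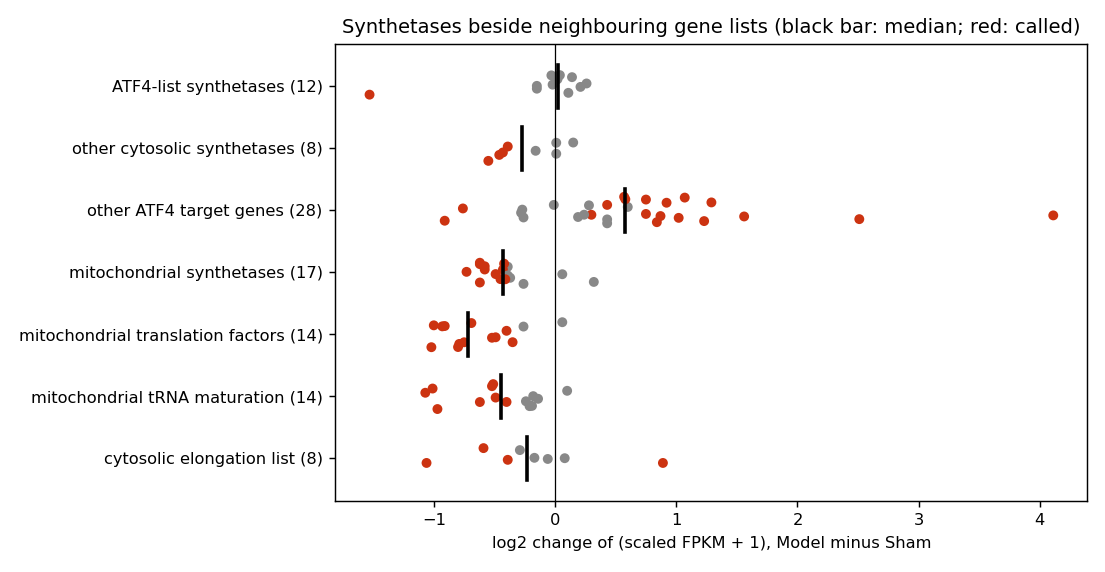
Log2 change of scaled FPKM + 1, Model minus Sham, for the genes of 7 lists (numbers of genes in brackets); points are genes, spread vertically only for legibility, red points were called, and black bars are medians. The medians stand at 0.02 for the Atf4-listed synthetases, 0.57 for the other Atf4 targets and -0.43 for the mitochondrial synthetases.

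Promoter windows of the members were searched for the Atf4 element, to set its presence beside these changes. RefSeq (GRCm38.p6) gave a window from 250 bases before to 50 bases after the start for 27 of the 37 members, 13 cytosolic and 14 mitochondrial. The C/EBP-ATF response element, to which Atf4 binds with a C/EBP partner, was searched as TGATGNAA on both strands. It was in 5 of 13 cytosolic windows (Aars, Gars, Iars, Tars and Yars), in 0 of 14 mitochondrial windows and in 3.97% of all 32817 windows. All 5 genes are on the Atf4-responsive list, which had 8 members with a window. Of the 13 windows of genes that fell in Model, 0 held the element. A match is a run of letters and not a shown binding site. The stretches around the matches are shown 5′ to 3′ on the gene's strand, with the element (or its reverse complement) in capitals.
Aars: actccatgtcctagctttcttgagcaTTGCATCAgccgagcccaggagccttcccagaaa
Aars, second match: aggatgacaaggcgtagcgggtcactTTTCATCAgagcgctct
Gars: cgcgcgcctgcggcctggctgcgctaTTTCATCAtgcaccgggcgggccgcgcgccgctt
Iars: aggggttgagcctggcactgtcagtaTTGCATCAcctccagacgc
Tars: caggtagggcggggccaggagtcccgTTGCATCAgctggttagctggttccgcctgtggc
Yars: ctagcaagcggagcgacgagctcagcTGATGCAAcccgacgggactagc
These lie at chr8:111033704-111033763 and chr8:111033825-111033867 (Aars, plus strand), chr6:55037945-55038004 (Gars, plus), chr13:49682111-49682155 (Iars, plus), chr15:11399640-11399699 (Tars, minus) and chr4:129189880-129189928 (Yars, plus). The first base of the element was at -112 and 10 from the start in Aars, -30 in Gars, 8 in Iars, -15 in Tars and 4 in Yars. None of the 5 genes was called in Model: their log2 changes were 0.14 (Aars), 0.02 (Gars), -0.15 (Iars), 0.03 (Tars) and 0.26 (Yars).

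The site of Nrf1, a transcription factor known for nuclear genes of mitochondria, was searched on both strands as GCGCA and GCGC with any base between them. It was in 2 of 14 mitochondrial windows (Iars2 and Mars2), in 3 of 13 cytosolic windows (Farsb, Kars and Tars) and in 4.59% of all windows. Of the genes with a match, 3 fell in Model (Iars2, Kars and Farsb), while Mars2 and Tars were not called. Among all 27 members with a window 13 fell, and whether a match goes with a fall was not tested. The stretches of Iars2, Kars and Mars2 are shown with the match in capitals.
Iars2: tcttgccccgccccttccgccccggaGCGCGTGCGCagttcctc
Kars: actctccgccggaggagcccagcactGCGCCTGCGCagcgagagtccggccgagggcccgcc
Mars2: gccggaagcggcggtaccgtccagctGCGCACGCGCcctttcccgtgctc
They lie at chr1:185329376-185329419 (Iars2, minus strand), chr8:112011368-112011429 (Kars, minus) and chr1:55237153-55237202 (Mars2, plus). The ETS-family motif CCGGAAG was in 4 mitochondrial and 5 cytosolic windows (8.86% of all windows), the E-box CACGTG in 1 and 4 (7.15%), and the interferon element, GAAA and GAAA with any 2 bases between them, in Qars alone (3.43%).

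In the LQ-40 and SQ-3 hearts no synthetase differed from Model at the threshold. By limma 0 of 37 were called in LQ-40 against Model, where 0.185% of all genes were called higher and 0.485% lower. In SQ-3 against Model 0 of 37 were called, beside 0.0769% higher and 0.269% lower. Limma-voom also called 0 in each comparison, beside 0.246% of all genes higher and 0.608% lower for LQ-40, and 0.0846% and 0.369% for SQ-3. At an unadjusted p under 0.05 there were 7 members for LQ-40 (12.1% of all genes) and 5 for SQ-3 (14.2%). The estimates of the mitochondrial genes lay above 0 in 15 of 17 in each comparison, with medians of 0.13 (LQ-40) and 0.21 (SQ-3); of all genes 51.1% and 48.3% lay above 0. Without LQ-40 1 the LQ-40 estimates lay above 0 in 8 of 17, with a median of -0.01; without LQ-40 2 or LQ-40 3 the medians were 0.14 and 0.23. With a library of SQ-3 left out, 15 to 16 of 17 lay above 0 and the median was 0.14 to 0.27. Both comparisons share the 3 Model libraries. The cytosolic medians were -0.08 and -0.07.

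The summed level of the mitochondrial set without Lars2 was 84.4 ± 3.8 scaled FPKM in Sham, 54.6 ± 0.523 in Model, 65.5 ± 6.68 in SQ-3 and 62.2 ± 13.3 in LQ-40 (SD, n = 3). By library it was 86.57, 86.58 and 80.0 in Sham and 54.03, 55.06 and 54.7 in Model. The LQ-40 libraries read 76.7, 59.39 and 50.62, and the SQ-3 libraries 69.82, 57.84 and 68.94. All SQ-3 libraries and 2 of the 3 LQ-40 libraries were thus above every Model library, and none reached Sham. With Lars2 included the sums overlapped: 70.39, 79.25 and 74.09 in Model, 84.74, 74.87 and 72.91 in LQ-40 and 80.26, 63.13 and 78.39 in SQ-3, whose mean of 73.9 ± 9.4 was below that of Model (74.6 ± 4.45, SD, n = 3). LQ-40 1, nearest to Sham here, was also the LQ-40 library nearest to Sham on the first principal component. Cardiomyocyte marker sums ranged from 6396 to 12817 scaled FPKM over the LQ-40 libraries and from 9875 to 12866 over SQ-3; their part in these levels was not tested. The cytosolic sums were 313 ± 27.1 in Sham, 265 ± 7.29 in Model, 260 ± 5.8 in SQ-3 and 269 ± 6.5 in LQ-40.

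Of the mitochondrial genes, 16 of 17 had an LQ-40 mean between the Sham and Model means, and 16 of 17 an SQ-3 mean there. Both counts include all 11 that fell. Those 11 were picked by their gap between the same Sham and Model libraries, which favours a mean between them. No share was computed for other genes that fell. Over all tested genes this share was 61.2% for LQ-40 and 68.0% for SQ-3, and of the cytosolic genes 7 of 20 and 6 of 20 had such a mean. Without LQ-40 1 the mitochondrial count for LQ-40 was 9 of 17, with 6 of the 11 that fell (46.5% of all genes); without LQ-40 2 or LQ-40 3 it was 15 and 16. With a library of SQ-3 left out it was 14 to 16. Yars2 read 7.18, 5.64 and 5.03 scaled FPKM in LQ-40 and 6.07, 6.31 and 6.73 in SQ-3. The SQ-3 libraries were above every Model library, the LQ-40 libraries were not, and neither difference passed (log2 change 0.11, limma adjusted p = 0.747, and 0.21, limma adjusted p = 0.428). Aars2 had the highest mitochondrial estimate for SQ-3, with 5.12, 4.34 and 5.48 in SQ-3 and 5.25, 4.25 and 3.14 in LQ-40 (log2 change 0.29 ± 0.14, SE, SQ-3 against Model; limma adjusted p = 0.366). In 6 of 17 mitochondrial genes every SQ-3 library was above every Model library (12.1% of all genes), and in LQ-40 this held for 1 of 17 (7.28%). In the other direction it held for 0 of 17 in LQ-40 (10.8% of all genes) and 1 of 17 in SQ-3 (14.3%). That gene was Lars2, the largest estimate of any member there (log2 change -1.19 ± 0.43, SE; limma adjusted p = 0.282).

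Some cytosolic members moved between the groups without overlap, but short of the threshold. Every LQ-40 library was above every Model library in 3 of 20, Wars, Dars and Qars, beside 7.28% of all genes, and below in 4 of 20, Aars, Yars, Farsa and Cars, beside 10.8%. In SQ-3, 2 of 20 were above (Dars and Qars; 12.1% of all genes) and 5 of 20 below (Nars, Iars, Eprs, Yars and Cars; 14.3%). Wars read 18.9, 30.1 and 18.2 scaled FPKM in LQ-40, above all Model libraries, and 17.7, 12.8 and 17.7 in SQ-3, which overlapped Model. The log2 changes against Model were 0.89 ± 0.27 for LQ-40 (SE; limma adjusted p = 0.207) and 0.46 ± 0.27 for SQ-3 (SE; limma adjusted p = 0.441). The interferon list had 3 of 20 genes called higher in LQ-40 against Model (0.185% of all genes). Its median log2 change there was 0.82. In SQ-3 against Model 0 of 20 were called higher (0.0769% of all genes), with a median of 0.48. At an unadjusted p under 0.05 there were 7 of these genes in SQ-3 (14.2% of all genes). Qars read 10.3, 8.75 and 9.07 in LQ-40 and 9.43, 9.16 and 9.29 in SQ-3, above every Model library in both groups (log2 change 0.27 and 0.26; limma adjusted p = 0.229 and 0.257). Yars read 5.34, 5.17 and 5.94 in LQ-40 and 5.91, 5.51 and 4.92 in SQ-3, below every Model library (log2 change -0.28 and -0.29; limma adjusted p = 0.308 and 0.282). Cars read 2.67, 3.06 and 2.8 in LQ-40 and 2.72, 2.69 and 2.63 in SQ-3, again below Model (-0.26 and -0.32; limma adjusted p = 0.346 and 0.244). The ratio of the cytosolic to the mitochondrial enzyme lay below every Model library in 9 of 17 pairs in SQ-3 and in 2 of 17 in LQ-40. In the other direction, the leucine pair lay above every Model library in SQ-3, and the tryptophan pair in LQ-40. No share over other gene pairs was computed.

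LQ-40 and SQ-3 were compared with each other as the study's pair of related compounds, a single pair, with doses and times not given in the labels. By limma 0 of 37 synthetases differed, as did 0.0% of all 13000 genes; 0 members had an unadjusted p under 0.05 (3.03% of all genes), and limma-voom called 0. The 95% interval of the log2 difference lay within a 1.5-fold change of scaled FPKM + 1 either way for 35 of 37 members. That scale understates differences of genes at low levels, so for these a 1.5-fold difference in level is not excluded. The exceptions were Wars (0.43, interval -0.17 to 1.04) and Lars2 (0.74, interval -0.22 to 1.69). For Yars2 the difference was -0.10 (interval -0.36 to 0.17) and for Aars2 -0.21 (interval -0.51 to 0.09). Mitochondrial estimates were lower in LQ-40 in 14 of 17, with a median of -0.08 (49.3% of all genes were lower). The libraries overlapped in all 17; of all genes 3.62% were higher and 2.5% lower without overlap.

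Against Sham, 5 mitochondrial synthetases were called lower in LQ-40 (Yars2, Tars2, Aars2, Iars2 and Ears2), beside 5.93% of all genes, and 0 of 20 cytosolic, of which 4 had an unadjusted p under 0.05 (35.7% of all genes) and limma-voom called 0 lower (7.21% of all genes). Yars2 had the smallest p (log2 change -0.51 ± 0.12, SE; limma adjusted p = 0.0234). The calls changed when single libraries were left out, while the estimates stayed below 0: over all other settings Yars2 ran from -0.63 to -0.41 and Iars2 from -0.56 to -0.33. Without LQ-40 1 there were 11 mitochondrial and 3 cytosolic calls; without LQ-40 2, LQ-40 3, Sham 1 or Sham 2 there were 0 mitochondrial calls, and without Sham 3 there was 1. Calls over all genes moved as well, from 771 lower to 2008 without LQ-40 1 and to 143 to 392 without another library. In SQ-3 against Sham, Wars was the only call (-1.07 ± 0.27, log2, SE; limma adjusted p = 0.0433), beside 1.83% of all genes called lower, and it was lost when SQ-3 1, SQ-3 2, SQ-3 3, Sham 2 or Sham 3 was left out, which left 0. The Wars estimate ran from -1.33 to -0.78 over all other settings, and calls over all genes went from 238 lower to 108 to 152 with a library left out. Of the 17 mitochondrial members 0 were called there by limma or limma-voom (1.96% of all genes lower), and 5 had an unadjusted p under 0.05 (28.0% of all genes). In 11 of 17 mitochondrial genes every SQ-3 library was below every Sham library (16.4% of all genes), and the same count, 11 of 17, held for LQ-40 (14.0%).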

How the data were processed

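Poly-A RNA of mouse heart was captured on poly-T beads, per the labels' protocols, which describe both a standard and a strand-specific library without saying which was sequenced. The authors deposited FPKM values for 12 mouse libraries; 2 rat libraries were not used. Per the submitters' processing notes the tools were HISAT2 2.0.5, featureCounts 1.5.0-p3 and fastp, and the mouse build mm10, with no role stated; the strand setting is not given in the sources used here. Products of FPKM and gene length were whole multiples of a step (tolerance 0.02), so reads were recovered.

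Each library's FPKM were scaled by its median ratio to the geometric mean, taken over the 10422 genes at 1 FPKM or more throughout. Values were analysed as log2(scaled FPKM + 1), which understates changes of low genes, with limma 3.58.1 (R 4.3.3; trend, all 12 libraries, 10.9 degrees of freedom, two-sided, Benjamini-Hochberg over 13000 genes with at least 1 FPKM in 3 libraries). The procedure was tested on simulated data. Group values are means ± SD. Sequences are RefSeq windows. Members and lists, Atf4 and interferon lists included, were chosen with earlier results of these data known. Per-library values are given for called members, members unlike their class and the highest and lowest members; from other lists up to 4 called genes by smallest p are named, and others as values. For 1 mitochondrial synthetase (counted in the totals, with its pair left out) and 1 gene of the interferon list, single values are not reported here. Alternatives were other scalings, pseudocounts, filters, a replicate block, leaving out libraries and limma-voom.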

Additional observations from a re-analysis of the deposited data

How the results depend on the processing

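Under quantile normalization, unscaled FPKM, a 0.1 pseudocount, a filter at a mean of 5 FPKM, no filter at all, a fit of the 2 groups alone, the replicate block and limma-voom (chosen after seeing the data), the fall of Wars, Qars, Dars, Iars2, Fars2, Yars2, Tars2 and Aars2 in Model stayed past the threshold wherever the gene was tested, also with each library left out. The 11 mitochondrial falls became 3 with a mean of at least 5 FPKM, where fewer members were tested, and 7 to 9 with a library left out. Limma-voom gave 12, and the highest count over the settings that kept all libraries was 13. With a library left out the 5 cytosolic falls became 3 to 4, and the 0 cytosolic rises 0 to 1. Against Sham, the 5 mitochondrial falls in LQ-40 became 2 with a mean of at least 5 FPKM, 0 with no filter or with the 2 groups alone, and 0 to 11 with a library left out; cytosolic falls ran from 0 to 3. The 1 cytosolic fall in SQ-3 became 0 with no filter, with 2 groups alone, with quantile normalization and with the replicate block, and 0 to 1 with a library left out. Causes were not tested. Lars2 ran from -0.17 (without Sham 1) to 0.63 with a library left out, and Wars2 from -0.01 (without Model 2) to 0.14; Wars2 was -0.06 with quantile normalization. Where a library was left out, the group's other 2 kept a spread shared with all groups.

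Same-numbered libraries shared little of their deviation from the group means: of 18 correlations, from -0.268 to 0.219, 3 were over 0.1. Whether the numbers pair the libraries is not stated in the labels, and these correlations cannot decide it. With the replicate block 11 mitochondrial and 4 cytosolic genes fell in Model. The count models listed beforehand were not run, because the deposited unit is FPKM. In scaled FPKM with 3 libraries a group, the median half-width of a 95% interval was 0.26 for cytosolic and 0.30 for mitochondrial members in Model against Sham, so smaller log2 changes were mostly not detectable.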

Other observations

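Regulators of the integrated stress response did not move in a common direction in Model hearts: of 13 listed genes 3 were called higher and 4 lower by limma, near the shares of all tested genes (20.9% higher and 18.0% lower). Eif2ak3, the kinase that senses misfolded protein in the endoplasmic reticulum, rose from 2.69 ± 0.4 to 5.61 ± 0.332 scaled FPKM (SD, n = 3; limma adjusted p = 0.00307). Eif2ak2, the kinase that senses double-stranded RNA and is itself interferon-induced, fell from 17.5 ± 1.94 to 5.24 ± 0.722 (SD, n = 3; limma adjusted p = 9.84e-05). Of the subunits of the exchange factor eIF2B, 3 of 5 fell as well: Eif2b1, Eif2b4 and Eif2b5, with log2 changes of -0.44 ± 0.09, -0.49 ± 0.13 and -0.35 ± 0.11 (SE).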
